A study of Sus scrofa with 12 samples.

Results

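Genes that the tumour suppressor p53 is known to switch on were followed in satellite cells of pig muscle, the stem cells that repair muscle fibres. The set was named by symbol as MDM2, CCNG1, GDF15, BTG2, PHLDA3, GADD45A, ZMAT3, SESN1 and TP53INP1. Of these 9 genes, 7 had a row under their symbol among the 31908 genes of the table, and all 7 passed the filter on low values that left 11636 genes for testing. BTG2 and PHLDA3 had no match by symbol and are not analysed here.

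As background, p53 is a transcription factor held at a low level by the ubiquitin ligase MDM2 and stabilised after DNA damage and other stress. Its targets stop the cell cycle, drive apoptosis, repair DNA and tune metabolism, and MDM2 is itself a target, which closes a feedback loop. The acetyltransferases CBP and p300 acetylate p53 and serve as its coactivators. Several of the targets also answer to other factors, such as FoxO proteins for sestrins and ATF4 for GDF15.

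The libraries form 4 groups of 3: cells of an arm labelled CBP after 60h of differentiation, control cells at 60h (named WT by the labels and NC by the table), CBP arm cells at 0h, labelled as proliferation, and control cells at 0h. The CBP arm was read as cells given SGC-CBP30, an inhibitor of the CBP and p300 bromodomains, because the protocol names it for 48 h in proliferation and 60 h in differentiation. That text stands on the controls as well, and a genotype tag carries the names of the groups, so a compound and a genetic change cannot be told apart from the labels. The dose reads 5 uM per ml, a unit that mixes amount and concentration, and the control treatment is not stated. The cell line is labelled C3H, usually a mouse name, while organism and genome build are pig. The title of the series asks how CBP bears on the differentiation of these cells. The labels do not say whether the 3 libraries of a group came from separate cultures, so the p-values measure the spread between libraries, which may be technical.

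Values are FPKM, reads scaled for gene length and library size, so levels of different genes can be set side by side. The libraries held 16095335 to 19155240 reads, recovered from the steps of the FPKM values, and at least 131 reads stood behind each value of the 7 genes. The satellite cell and myoblast markers PAX7, MYF5, MYOD1, DES, MYOG, CDH15 and CHRNA1 were all detected, and their summed level was 1127 to 1208 FPKM in CBP arm cells and 1756 to 1919 FPKM in control cells at 60h, and 421 to 458 FPKM in CBP arm cells and 1570 to 1587 FPKM in control cells at 0h. DES and MYOG made up most of the sum at 60h, and PAX7 (12.3 FPKM in CBP arm cells and 7.57 FPKM in control cells), MYF5 (102 FPKM in CBP arm cells and 87.4 FPKM in control cells) and CDH15 (67.0 FPKM in CBP arm cells and 49.6 FPKM in control cells) ran against it. The 5 myotube markers summed to 604 to 676 FPKM in CBP arm cells and 972 to 1011 FPKM in control cells at 60h, and to 21.7 to 25.9 FPKM in CBP arm cells and 304 to 338 FPKM in control cells at 0h, and of these MYMK ran against the sum at 60h (124 FPKM in CBP arm cells and 107 FPKM in control cells). The 7 fibroblast markers summed to 2375 to 2604 FPKM in CBP arm cells and 3608 to 3765 FPKM in control cells at 60h, and to 489 to 503 FPKM in CBP arm cells and 1013 to 1051 FPKM in control cells at 0h. PDGFRA, COL3A1 and LUM at 60h and TCF21 at 0h had higher means in CBP arm cells. The 7 smooth muscle and pericyte markers summed to 1611 to 1703 FPKM in CBP arm cells and 2749 to 2769 FPKM in control cells at 60h, and to 855 to 909 FPKM in CBP arm cells and 2746 to 2844 FPKM in control cells at 0h, and RGS5 at 60h had a higher mean in CBP arm cells. The 5 immune markers summed to 3.18 to 7.39 FPKM over all libraries, the 5 endothelial markers to 1.17 to 3.97 FPKM and the 4 adipocyte markers to 0.304 to 6.51 FPKM. Among them CD68 averaged 1.36 to 4.38 FPKM over the groups, CD14 0.928 to 2.31 FPKM and PECAM1 0.917 to 1.51 FPKM, and FABP4 averaged 0.318 FPKM in CBP arm cells and 0.715 FPKM in control cells at 60h, and 5.50 FPKM in CBP arm cells and 5.95 FPKM in control cells at 0h. The immune marker CD3E was at 0 in every library, and PTPRC, CSF1R, TEK, ADIPOQ, PLIN1 and LEP stayed under 0.5 FPKM throughout. The part of these cell type differences in the values below was not tested, and in bulk RNA fewer cells of a type and less RNA per cell cannot be told apart.

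At 60h the p53 targets went in different directions in the CBP arm. GDF15, MDM2 and ZMAT3 fell against control cells, TP53INP1, SESN1 and GADD45A rose, and CCNG1 did not pass the test. This makes 3 of 7 genes higher and 3 of 7 lower, beside 44.7% of all tested genes called higher, 27.0% called lower and 71.6% called either way (limma, adjusted p under 0.05, Benjamini-Hochberg over all tested genes). The median log2 change of the 7 genes was -0.02, and that of all tested genes was 0.10. Each log2 change is a difference of log2(FPKM + 1), which understates changes of low genes, its standard error (SE) is limma's, and folds are ratios of mean FPKM.

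**Figure D1:**
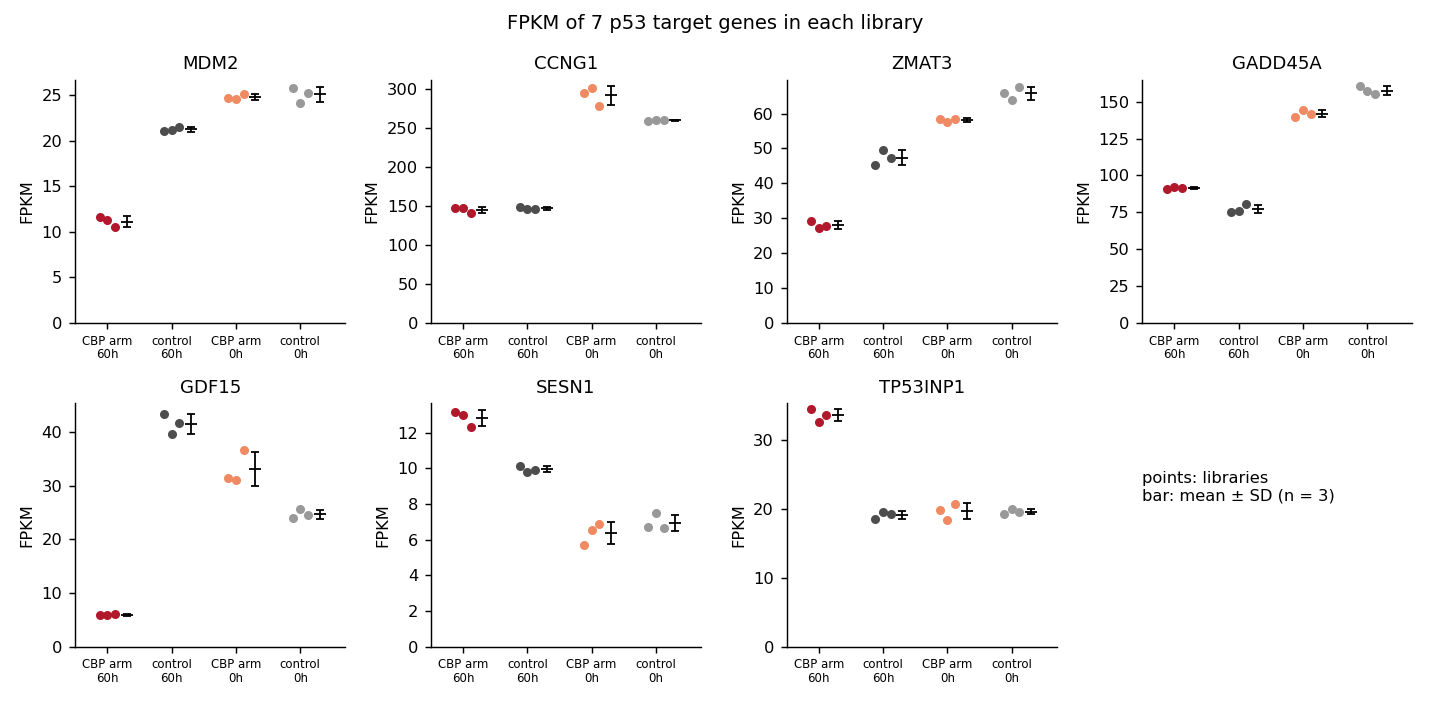
FPKM of each p53 target gene (y axis, from 0) in the 3 libraries of each group (x axis), with the mean ± SD beside the points. GDF15, MDM2 and ZMAT3 were lowest and TP53INP1 and SESN1 highest in the CBP arm at 60h, while the CCNG1 points of the 2 groups at 60h lie together between 141 and 149 FPKM.

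MDM2 (ENSSSCG00000000488, chromosome 5, 33105717 to 33137602 in Sscrofa11.1), the ligase that marks p53 for degradation, stood at 11.6, 11.3 and 10.49 FPKM in the 3 CBP arm libraries at 60h, against 21.1, 21.2 and 21.6 FPKM in the control libraries. Every CBP arm library lay below every control library. This was a 1.91-fold fall (by limma, log2 change -0.88 with SE 0.038 and adjusted p = 1.17e-09), on 4610 reads in the CBP arm and 8553 reads in control cells.

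CCNG1 (ENSSSCG00000017024, chromosome 16, 60349255 to 60356737), cyclin G1, which brings the phosphatase PP2A to MDM2, was the most abundant of the 7 genes. It stood at 147, 148 and 141 FPKM in the CBP arm at 60h and at 149, 146 and 146 FPKM in control cells. The groups overlapped, and the log2 change was -0.02 (95% interval -0.08 to 0.05, limma adjusted p = 0.617). After scaling by the median of ratios, CCNG1 was called lower (log2 change -0.15, adjusted p = 0.00382), and the median change of all tested genes was then -0.01.

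GADD45A (ENSSSCG00000037066, chromosome 6, 144940702 to 144944089), a stress sensor that binds the replication clamp PCNA and activates stress kinases, stood at 90.9, 92.4 and 91.4 FPKM in the CBP arm at 60h, against 75.4, 75.6 and 80.4 FPKM in control cells. The groups did not overlap, and the gene rose 1.19-fold (log2 change 0.24, SE 0.028, limma adjusted p = 7.04e-06). ZMAT3 (ENSSSCG00000033860, chromosome 13, 117113272 to 117147639), an RNA-binding zinc finger protein that regulates splicing and mRNA stability, stood at 29.3, 27.2 and 27.7 FPKM, against 45.2, 49.5 and 47.2 FPKM in control cells. All 3 CBP arm libraries were below the controls, a 1.69-fold fall (log2 change -0.73, SE 0.037, limma adjusted p = 5.06e-09).

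GDF15 (ENSSSCG00000034260, chromosome 2, 59409035 to 59411356), a secreted stress hormone of the TGF-beta family that reduces appetite through the receptor GFRAL, had the largest change of the 7. It stood at 5.81, 5.92 and 6.17 FPKM in the CBP arm at 60h, against 43.4, 39.6 and 41.7 FPKM in control cells. The control libraries were all several times above those of the CBP arm, a 6.97-fold fall (by limma, log2 change -2.61 with SE 0.058 and adjusted p = 5.02e-12). It had 410 reads in the CBP arm and 2775 in control cells over 3 libraries each.

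The remaining genes act on metabolism and autophagy. SESN1 (ENSSSCG00000004390, chromosome 1, 75056731 to 75170374), a sestrin that restrains the growth kinase complex mTORC1, stood at 13.2, 13.0 and 12.3 FPKM in the CBP arm at 60h, against 10.1, 9.78 and 9.92 FPKM in control cells. It rose 1.29-fold without overlap (log2 change 0.34, SE 0.061, limma adjusted p = 0.000323). TP53INP1 (ENSSSCG00000034321, chromosome 4, 41747654 to 41766688), a nuclear protein that promotes p53 phosphorylation and also acts in autophagy, stood at 34.4, 32.6 and 33.6 FPKM, against 18.5, 19.5 and 19.2 FPKM in control cells. It rose 1.76-fold, again without overlap (log2 change 0.78, SE 0.041, limma adjusted p = 6.92e-09).

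In proliferation a different pattern was measured. At 0h GDF15 and CCNG1 rose and ZMAT3 and GADD45A fell in the CBP arm, and MDM2, SESN1 and TP53INP1 did not pass the test. These are 2 of 7 higher and 2 of 7 lower, beside 44.2% of all tested genes called higher, 18.1% called lower and 62.3% called either way. The median log2 change was -0.02 for the 7 genes and 0.12 for all tested genes.

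GDF15 stood at 31.5, 31.0 and 36.7 FPKM in the CBP arm at 0h, against 24.1, 25.7 and 24.5 FPKM in control cells, which was a 1.34-fold rise without overlap (log2 change 0.40, SE 0.058, limma adjusted p = 8.43e-05). CCNG1 stood at 295, 302 and 279 FPKM in the CBP arm, against 259, 261 and 260.1 FPKM in control cells. This 1.12-fold rise (log2 change 0.17, limma adjusted p = 0.000473) did not pass with median-of-ratios scaling (log2 change 0.03, adjusted p = 0.503). ZMAT3, at 58.4, 57.5 and 58.6 FPKM in the CBP arm, was below each control library (65.9, 63.9 and 67.6 FPKM) and fell 1.13-fold (log2 change -0.17, limma adjusted p = 0.00152). GADD45A stood at 140 to 144 FPKM in the CBP arm and 155 to 161 FPKM in control cells and fell 1.11-fold (log2 change -0.15, limma adjusted p = 0.000578).

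MDM2 stood at 24.8, 24.6 and 25.2 FPKM in the CBP arm at 0h and at 25.8, 24.2 and 25.3 FPKM in control cells. The arms overlapped, with a log2 change of -0.02 (95% interval -0.10 to 0.07, limma adjusted p = 0.731). TP53INP1 stood at 19.8, 18.4 and 20.7 FPKM in the CBP arm and 19.2, 19.9 and 19.5 FPKM in control cells (log2 change 0.00, 95% interval -0.09 to 0.09, limma adjusted p = 0.961). SESN1 was the lowest of the set, at 5.68, 6.52 and 6.90 FPKM in the CBP arm and 6.71, 7.47 and 6.64 FPKM in control cells (log2 change -0.11, 95% interval -0.24 to 0.02, limma adjusted p = 0.135). Median-of-ratios scaling placed all 3 genes below control, MDM2 at -0.15 (adjusted p = 0.00598), SESN1 at -0.23 (adjusted p = 0.00667) and TP53INP1 at -0.13 (adjusted p = 0.0152), so the 0h count then was 1 higher and 5 lower. SESN1 was also called lower without CBP arm replicate 3 at 0h (log2 change -0.16, adjusted p = 0.0406).

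**Figure D2:**
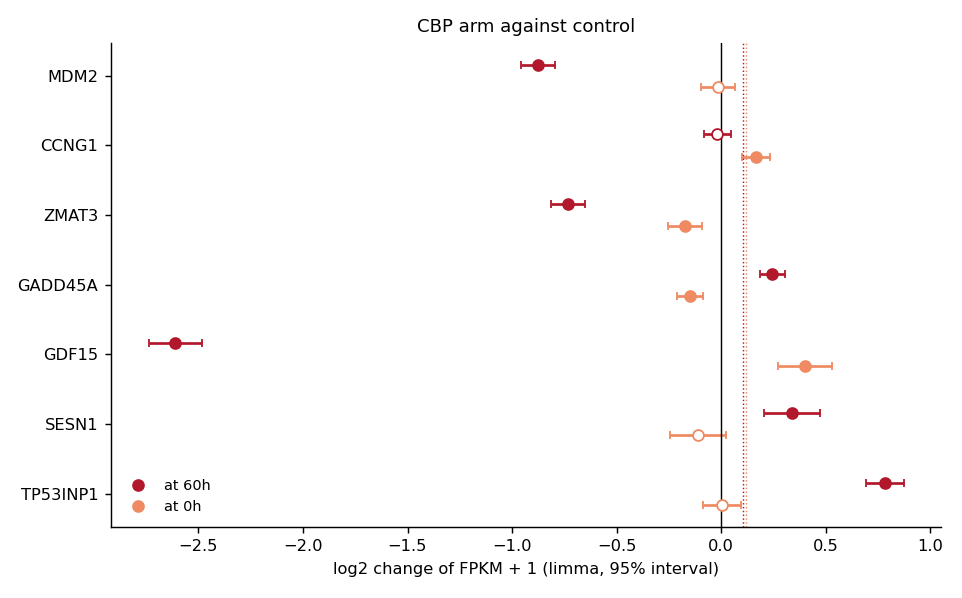
Log2 change of FPKM + 1 between the CBP arm and control cells (x axis) for each gene (y axis), at 60h (upper, red) and at 0h (lower, orange), with limma's 95% interval. Filled points passed an adjusted p of 0.05, and the dotted lines mark the median of all tested genes, 0.10 at 60h and 0.12 at 0h. GDF15 and GADD45A lie on opposite sides of 0 at the 2 times and passed at both. SESN1 and CCNG1 also change side, but SESN1 passed only at 60h and CCNG1 only at 0h.

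The difference between the arm effect at 60h and that at 0h was tested as an interaction. It passed for all 7 genes, 3 with a higher and 4 with a lower effect at 60h, beside 24.3% and 26.7% of all tested genes, or 50.9% either way. GDF15 had the largest difference (log2 -3.01, SE 0.082, limma adjusted p = 1.49e-10), followed by MDM2 (-0.86, adjusted p = 1.10e-07) and TP53INP1 (0.78, adjusted p = 5.11e-07). Smaller differences were found for ZMAT3 (-0.56, adjusted p = 3.48e-06), SESN1 (0.45, adjusted p = 0.000987), GADD45A (0.39, adjusted p = 5.70e-06) and CCNG1 (-0.18, adjusted p = 0.00345). GDF15 and GADD45A were called in opposite directions at 60h and 0h, as were 8.57% of all tested genes. ZMAT3 was lower at both times. A call in the same direction at both times, whether higher or lower, was made for 41.2% of all tested genes. The share called lower at both times cannot be above the 18.1% called lower at 0h.

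From 0h to 60h most of the set fell in both arms, to different depths. In the CBP arm 5 of 7 genes fell and 2 rose, beside 41.5% and 31.3% of all tested genes, or 72.7% either way. In control cells 4 fell, 2 rose and TP53INP1 did not pass, beside 38.0% and 28.8% of all tested genes, or 66.8% either way. MDM2, CCNG1, ZMAT3 and GADD45A were lower at 60h in both arms, as were 27.6% of all tested genes, and SESN1 was higher in both, as were 19.1%.

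MDM2 averaged 11.14 ± 0.591 FPKM at 60h and 24.8 ± 0.300 FPKM at 0h in the CBP arm (SD, n = 3 each), a 2.23-fold fall (log2 change -1.09, SE 0.038, limma adjusted p = 1.17e-10). In control cells it averaged 21.3 ± 0.280 FPKM at 60h and 25.1 ± 0.833 FPKM at 0h, a 1.18-fold fall (log2 change -0.23, limma adjusted p = 0.000185). CCNG1 averaged 145 ± 3.84 FPKM at 60h and 292 ± 11.98 FPKM at 0h in the CBP arm, and 147 ± 1.52 FPKM at 60h and 259.8 ± 1.17 FPKM at 0h in control cells. It fell 2.01-fold in the CBP arm and 1.77-fold in control cells. At 60h the arms thus overlapped in CCNG1 and stood apart in MDM2.

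ZMAT3 averaged 28.1 ± 1.08 FPKM at 60h and 58.2 ± 0.566 FPKM at 0h in the CBP arm, a 2.07-fold fall, and 47.3 ± 2.14 FPKM at 60h and 65.8 ± 1.87 FPKM at 0h in control cells, a 1.39-fold fall. GADD45A went the other way round, with a 1.55-fold fall in the CBP arm (91.6 ± 0.763 FPKM at 60h and 142 ± 2.16 FPKM at 0h) and a 2.04-fold fall in control cells (77.2 ± 2.83 FPKM at 60h and 157 ± 2.85 FPKM at 0h). SESN1 rose 2.01-fold in the CBP arm (12.8 ± 0.436 FPKM at 60h and 6.37 ± 0.622 FPKM at 0h) and 1.43-fold in control cells (9.94 ± 0.165 FPKM at 60h and 6.94 ± 0.461 FPKM at 0h).

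GDF15 fell 5.54-fold with time in the CBP arm, to 5.97 ± 0.183 FPKM at 60h, against 33.1 ± 3.16 FPKM at 0h (log2 change -2.29, limma adjusted p = 8.03e-12). In control cells it rose 1.68-fold, to 41.6 ± 1.89 FPKM at 60h, against 24.7 ± 0.840 FPKM at 0h (log2 change 0.73, limma adjusted p = 3.51e-07). Opposite calls in the 2 arms were found for 7.21% of all tested genes. TP53INP1 rose 1.71-fold in the CBP arm (33.5 ± 0.906 FPKM at 60h and 19.6 ± 1.16 FPKM at 0h), and in control cells averaged 19.1 ± 0.533 FPKM at 60h and 19.5 ± 0.374 FPKM at 0h (log2 change -0.03, 95% interval -0.12 to 0.06, limma adjusted p = 0.509).

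**Figure D3:**
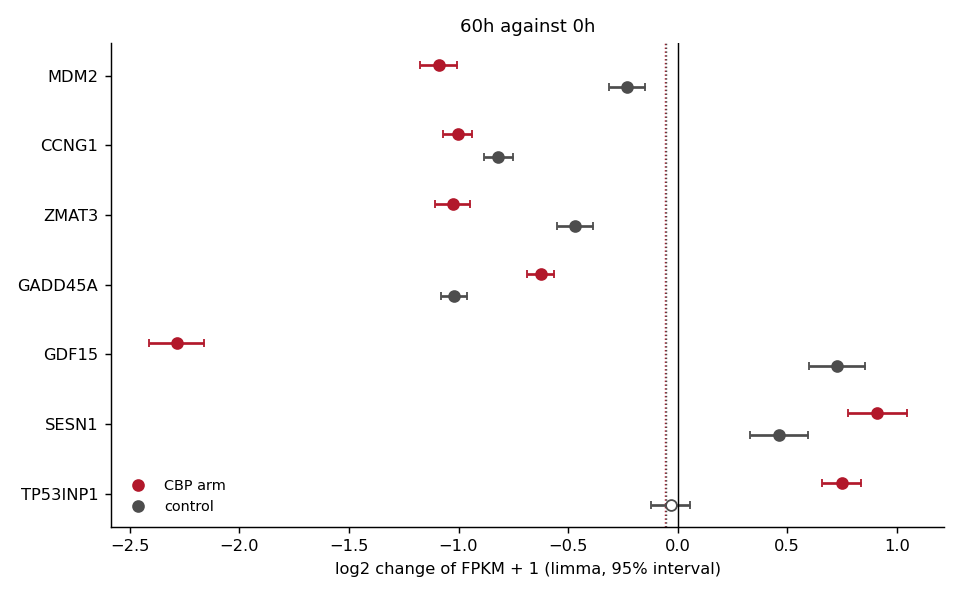
Log2 change of FPKM + 1 between 60h and 0h (x axis) for each gene (y axis), in the CBP arm (upper, red) and in control cells (lower, grey), with limma's 95% interval. Filled points passed an adjusted p of 0.05, and the dotted lines mark the median of all tested genes. MDM2 and ZMAT3 fell further in the CBP arm, GADD45A fell further in control cells, and GDF15 moved in opposite directions.

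The order of the 4 groups differed from gene to gene. For MDM2 and ZMAT3 it ran, high to low, control 0h, CBP arm 0h, control 60h and CBP arm 60h, and the first pair overlapped for MDM2. For CCNG1 the CBP arm at 0h was highest, and the groups at 60h shared the lowest place. GDF15 was highest in control cells at 60h. No neighbours overlapped for GDF15, GADD45A or ZMAT3, and how common this is among all tested genes was not tested. The CBP arm at 60h was highest for SESN1 and TP53INP1, and the 3 other groups of TP53INP1 overlapped one another in turn. The highest group mean was 6.97 times the lowest for GDF15 and 1.76 to 2.35 times the lowest for the other 6 genes. Within a group the coefficient of variation ranged from 0.451% (CCNG1, control cells at 0h) to 9.78% (SESN1, CBP arm at 0h).

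Genes that act on p53 itself were set beside its targets. MDM4, the MDM2 relative that masks the transactivation domain of p53, fell at 0h in the CBP arm (9.54 ± 0.621 FPKM, against 11.04 ± 0.336 FPKM in control cells, log2 change -0.19, adjusted p = 0.00855). At 60h MDM4 rose (10.6 ± 0.716 FPKM, against 9.05 ± 0.343 FPKM, log2 change 0.21, limma adjusted p = 0.00447), but not with median-of-ratios scaling (0.09, adjusted p = 0.12).

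The 24 listed genes of the p53 network, with its kinases, acetyltransferases and ubiquitin ligases, had 20 tested members. At 60h 14 were higher in the CBP arm, none lower and 6 not called, with a median log2 change of 0.21, beside 44.7% of all tested genes higher and 27.0% lower and a median of 0.10. After median-of-ratios scaling 8 were higher and 3 lower, beside 33.1% and 35.9% of all genes. At 0h 11 were higher and 2 lower, beside 44.2% and 18.1%, or 4 and 4 after that scaling, beside 25.7% and 26.5%. The scaled counts of higher genes, 8 of 20 at 60h and 4 of 20 at 0h, lay near or below the shares of all genes. CREBBP, which encodes CBP, rose 1.63-fold at 60h, and the deacetylase SIRT1, which removes acetyl groups from p53, rose 1.68-fold (8.16 FPKM in the CBP arm and 4.86 FPKM in control cells). The phosphatase PPM1D, a p53 target that switches off the damage response, rose 1.67-fold (7.16 FPKM in the CBP arm and 4.29 FPKM in control cells), and TP53BP1, a damage response adaptor, rose 1.37-fold. EP300, which encodes p300, rose 1.24-fold at 0h and 1.23-fold at 60h, and CREBBP rose 1.23-fold at 0h. PRKDC, the DNA-dependent protein kinase, fell 1.24-fold at 0h and rose 1.19-fold at 60h. Its log2 change at 60h was 0.21, beside the median of 0.10 for all tested genes, and is given without median-of-ratios scaling.

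Further p53 targets were listed by role, and PPM1D is counted both here, as an arrest gene, and in the p53 network. Of 72 listed genes, 63 had a single row and 55 were tested. At 60h 21 were higher, 21 lower and 13 not called in the CBP arm, which is 38.2% in each direction beside 44.7% and 27.0% of all tested genes. After median-of-ratios scaling the split was 14 higher and 25 lower, beside 33.1% and 35.9% of all genes. At 0h 30 were higher and 12 lower (54.5% and 21.8%, beside 44.2% and 18.1%), or 19 and 14 after that scaling, beside 25.7% and 26.5%. Counts by role can be read against the same shares of all genes. Their median log2 change was 0.01 at 60h and 0.19 at 0h, beside 0.10 and 0.12 for all tested genes.

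**Figure D4:**
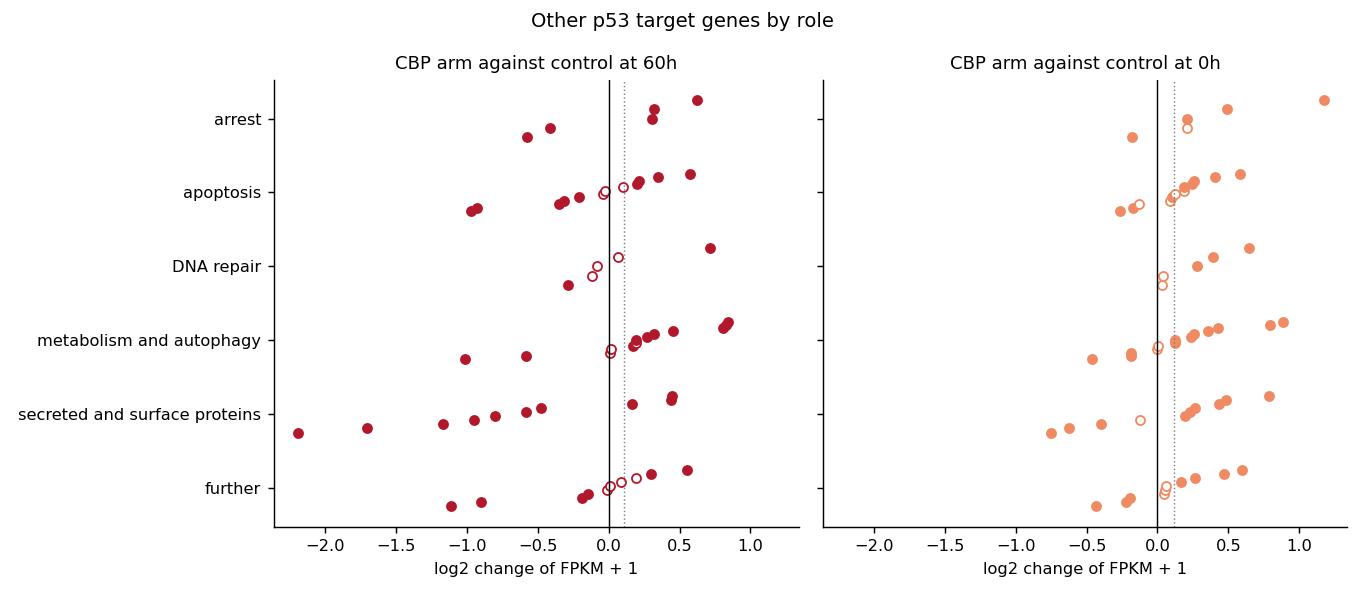
Log2 change of FPKM + 1 between the CBP arm and control cells (x axis) for the 55 other tested p53 targets, 1 point a gene, in rows by role, at 60h (left) and at 0h (right). Filled points passed an adjusted p of 0.05, and the dotted line marks the median of all tested genes. Of the secreted and surface proteins, 7 of 10 were lower at 60h, beside 27.0% of all tested genes, among them THBS1 at -1.71.

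Among secreted and surface proteins, 7 of 10 tested genes fell and 3 rose in the CBP arm at 60h, with a median log2 change of -0.70, beside 27.0% of all tested genes lower and 44.7% higher. At 0h 6 rose and 3 fell, with a median of 0.21, beside 44.2% higher and 18.1% lower. Median-of-ratios scaling gave 2 higher and 7 lower at 60h (all genes 33.1% and 35.9%), and 5 higher and 4 lower at 0h (all genes 25.7% and 26.5%). The matrix protein thrombospondin THBS1 fell 3.27-fold at 60h (log2 change -1.71), the cytokine LIF 2.79-fold and the ephrin receptor EPHA2 2.07-fold. EPHA2 was 1.37-fold higher at 0h. At 0h the largest changes of the list were in TNFSF9, a ligand of the TNF family (1.91-fold higher), the tetraspanin CD82 (1.69-fold lower), THBS1 (1.54-fold lower) and the growth factor KITLG (1.42-fold higher).

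Of 12 tested apoptosis genes, 5 fell and 4 rose in the CBP arm at 60h, beside 27.0% of all tested genes lower and 44.7% higher. At 0h 6 rose and 2 fell, which is near the 44.2% higher and 18.1% lower of all genes. Median-of-ratios scaling gave 1 higher and 6 lower at 60h (all genes 33.1% and 35.9%), and 3 in each direction at 0h (25.7% and 26.5%). The desmosomal protein PERP fell 2.02-fold at 60h (15.7 FPKM in the CBP arm and 31.7 FPKM in control cells), the death receptor FAS fell 2.18-fold (3.24 FPKM in the CBP arm and 7.07 FPKM in control cells) and the nuclease AEN fell 1.29-fold. Unscaled, these genes were called higher at 0h (PERP 1.15-fold, FAS 1.20-fold and AEN 1.07-fold). Their log2 changes at 0h were 0.19, 0.24 and 0.10, beside a median of 0.12 for all tested genes. APAF1, the core of the apoptosome, rose 1.56-fold at 60h and 1.38-fold at 0h. At 0h TP53I3 rose 2.03-fold at a low level (log2 change 0.58), with 1.93 FPKM in the CBP arm and 0.952 FPKM in control cells. This rested on 132 and 70 reads over 3 libraries each, and TP53I3 rose 1.51-fold at 60h. NINJ1, a protein of plasma membrane rupture, rose 1.24-fold at 0h, and BBC3, which encodes PUMA, fell 1.30-fold at 0h. The call of BBC3 at 0h was lost with no filter (adjusted p = 0.077) and without 1 of 4 libraries in turn (adjusted p = 0.0698 to 0.126).

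Of 5 tested arrest genes, 3 rose and 2 fell at 60h and 3 rose and 1 fell at 0h, or 2 and 2 at 60h and 2 and 1 at 0h with median-of-ratios scaling. With 5 genes these counts are near the shares of all tested genes (44.7% higher and 27.0% lower at 60h, 44.2% and 18.1% at 0h). CDKN1A, the p21 inhibitor of cyclin-dependent kinases, stood at 574, 579 and 582 FPKM in the CBP arm at 60h, against 776, 760.1 and 778 FPKM in control cells. It fell 1.33-fold (log2 change -0.41, limma adjusted p = 9.93e-07), and 1.13-fold at 0h. PLK2, a polo-like kinase, fell 1.504-fold at 60h (35.4 FPKM in the CBP arm and 53.3 FPKM in control cells) and rose 2.29-fold at 0h (75.4 FPKM in the CBP arm and 32.9 FPKM in control cells). SERTAD1, a regulator of E2F and CDK4, rose 1.25-fold at 60h and 1.43-fold at 0h. Of 5 tested repair genes, the translesion polymerase POLH fell 1.26-fold at 60h and rose 1.24-fold at 0h and the ribonucleotide reductase subunit RRM2B rose 1.35-fold at 0h. Among the 5 genes 1 rose and 1 fell at 60h, or 1 and 3 with median-of-ratios scaling, and 3 rose and none fell at 0h under either scaling. The shares of all tested genes were 44.7% higher and 27.0% lower at 60h (33.1% and 35.9% scaled), and 44.2% and 18.1% at 0h (25.7% and 26.5% scaled).

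Of 13 tested metabolic and autophagy targets, 8 were higher and 2 lower in the CBP arm at 60h, beside 44.7% and 27.0% of all tested genes, and 8 were higher and 3 lower at 0h, beside 44.2% and 18.1%. After median-of-ratios scaling 6 were higher and 2 lower at 60h, beside 33.1% and 35.9%, and 4 were higher and 3 lower at 0h, beside 25.7% and 26.5%. The phosphatidate phosphatase LPIN1 rose 1.96-fold at 60h and 2.02-fold at 0h, and the proline pathway enzyme ALDH4A1 rose 1.82-fold and 1.37-fold. DDIT4, which inhibits mTORC1, rose 1.75-fold at 0h. PANK1, a kinase of coenzyme A synthesis, rose 2.17-fold at 60h and fell 1.52-fold at 0h. DRAM1, a lysosomal protein that induces autophagy, fell 2.31-fold at 60h (3.50 FPKM in the CBP arm and 8.07 FPKM in control cells). Among 10 further targets, 2 rose and 4 fell at 60h (2 and 5 with median-of-ratios scaling), beside 44.7% of all tested genes higher and 27.0% lower (33.1% and 35.9%). At 0h 4 rose and 3 fell (2 and 3), near the 44.2% higher and, once scaled, the 25.7% higher and 26.5% lower of all genes, of which 18.1% were lower unscaled. The antiviral protein TRIM22 fell 2.33-fold and the LIM protein FHL2 fell 1.88-fold at 60h, and TRAF4 rose 1.55-fold. All were called the other way at 0h unscaled, TRIM22 1.44-fold and FHL2 1.12-fold higher and TRAF4 1.21-fold lower. The log2 change of FHL2 at 0h was 0.16, beside a median of 0.12 for all tested genes.

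Paralogs of the 9 genes, many of them not classed as p53 targets, were compared next. MDM4 is also counted in the p53 network, and SESN2 also among the metabolic and autophagy targets. Of 11 tested paralogs, 8 were higher and 2 lower in the CBP arm at 60h (7 and 2 after median-of-ratios scaling), beside 44.7% of all tested genes higher and 27.0% lower (33.1% and 35.9%). At 0h 2 were higher and 6 lower (1 and 6), beside 44.2% and 18.1% (25.7% and 26.5%). SESN3, a sestrin known as a FoxO target, stood at 10.7, 9.21 and 9.47 FPKM in the CBP arm at 60h, against 0.982, 1.05 and 1.08 FPKM in control cells, a 9.42-fold rise (log2 change 2.40, SE 0.065, limma adjusted p = 2.55e-11). It was already 3.42-fold higher at 0h. SESN2, a p53 and ATF4 target, stood at 14.4, 15.2 and 14.2 FPKM in the CBP arm at 60h, against 22.2, 23.5 and 21.2 FPKM in control cells, and fell 1.53-fold (log2 change -0.58, limma adjusted p = 1.21e-06). Thus SESN1 and SESN3 were higher and SESN2 lower in the CBP arm at 60h.

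TP53INP2, an autophagy protein and the paralog of TP53INP1, rose 2.01-fold in the CBP arm at 60h (20.4 ± 0.932 FPKM, against 10.1 ± 0.384 FPKM in control cells, SD, n = 3 each). At 0h it stood at 8.44 ± 0.731 FPKM in the CBP arm and 8.23 ± 0.402 FPKM in control cells (limma adjusted p = 0.657). CCNG2, the second G-type cyclin and a FoxO target, rose 2.05-fold at 60h (11.6 ± 0.402 FPKM, against 5.65 ± 0.218 FPKM), while CCNG1 did not pass. At 0h CCNG2 had an adjusted p of 0.815 by limma. The antiproliferative BTG1 rose 1.25-fold at 60h and fell 1.65-fold at 0h, and its relative BTG3 fell 1.29-fold at 60h and rose 1.15-fold at 0h, a rise that median-of-ratios scaling did not call (log2 change 0.06).

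GADD45B rose 1.53-fold at 60h in the CBP arm, and its fall at 0h (1.15-fold, adjusted p = 0.0254) was lost when the 0h groups were fitted alone (adjusted p = 0.0658), with no filter (adjusted p = 0.0546) and without replicate 2 of either arm (adjusted p = 0.0894 and 0.0897). GADD45G fell 3.15-fold at 0h (18.6 ± 0.698 FPKM in the CBP arm, against 58.4 ± 2.30 FPKM in control cells) and rose 1.23-fold at 60h. Myostatin MSTN, listed as a relative of GDF15 in the TGF-beta family and a brake on muscle growth, rose 4.14-fold at 60h in the CBP arm (21.0 ± 1.21 FPKM, against 5.07 ± 0.287 FPKM in control cells), where GDF15 fell, and fell 1.81-fold at 0h. PHLDA2, a relative of PHLDA3, did not pass at either time (limma adjusted p = 0.48 at 60h and 0.752 at 0h).

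**Figure D5:**
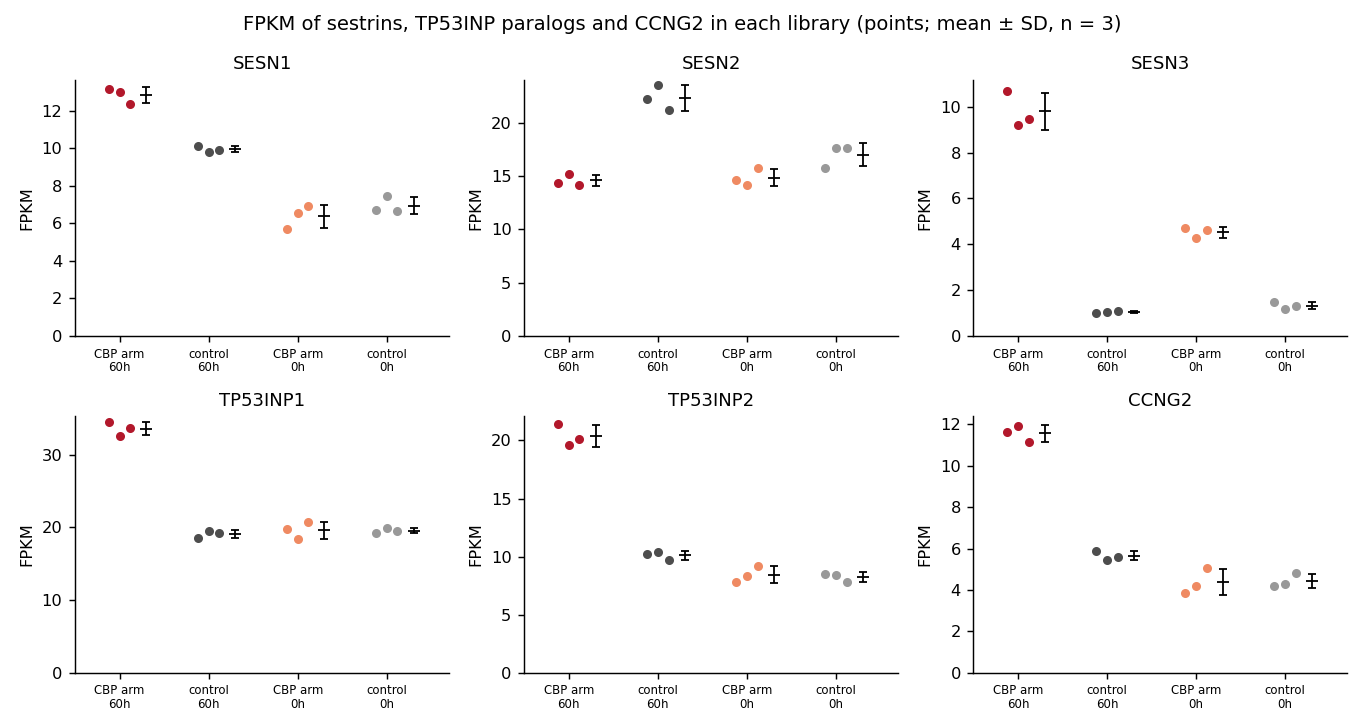
FPKM (y axis, from 0) of the 3 sestrins, the TP53INP pair and CCNG2 in the 3 libraries of each group (x axis), with the mean ± SD beside the points. SESN1, SESN3, TP53INP1, TP53INP2 and CCNG2 were highest in the CBP arm at 60h, where SESN2 stayed between 14.2 and 15.2 FPKM.

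Because GDF15 and SESN2 are also targets of ATF4, the transcription factor of amino acid and endoplasmic reticulum stress, that branch was listed too. All 10 tested genes of it were lower in the CBP arm at 60h, with a median log2 change of -0.64, and 6 were lower and none higher at 0h, with a median of -0.24, beside 27.0% and 18.1% of all tested genes called lower. After median-of-ratios scaling 10 were lower at 60h and 9 at 0h, beside 35.9% and 26.5%. The serine synthesis enzyme PSAT1 fell 2.79-fold at 60h (118 FPKM in the CBP arm and 329 FPKM in control cells), the receptor VLDLR 2.42-fold, the pseudokinase TRIB3 1.89-fold and the asparagine synthetase ASNS 1.76-fold. ATF4 itself fell 1.27-fold at 60h and 1.33-fold at 0h. SESN2 is itself among the 10 genes, and GDF15 is not. GDF15 fell at 60h and rose at 0h, and the part of ATF4 in these changes was not tested.

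Genes whose profile over the 12 libraries was most like each target were taken by Pearson's r on log2(FPKM + 1). The libraries fall into 4 groups, so r describes mainly the 4 group levels, and no test is given. Closest to MDM2 were the proprotein convertase PCSK6 and the leucyl-tRNA synthetase LARS1 (r = 0.995 each), and closest to CCNG1 were the ribosomal proteins RPL5 and RPL3 (r = 0.998 each). GDF15 was most like the ribosome assembly factor GRWD1 (r = 0.991), GADD45A most like AVPI1 (r = 0.996) and ZMAT3 most like the mitochondrial outer membrane protein TSPO (r = 0.995). SESN1 was closest to TGFBR3, the betaglycan co-receptor, and to the transcriptional repressor HBP1 (r = 0.989 each), and TP53INP1 to the unconventional myosin MYO10 (r = 0.991). No other gene of the set was among the 3 closest of any of the 7, which among so many genes does not show whether the set moved together. Within the set r ran from 0.978 (MDM2 and ZMAT3) to -0.962 (GDF15 and TP53INP1), and CCNG1 and GADD45A had 0.940.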

How the data were processed

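Total RNA was made into libraries with a VAHTS Universal V8 kit, per the labels' protocols. The submitters' processing notes name Trimmomatic, featureCounts and the build Sscrofa11.1. Tool versions, the aligner, the annotation and strandedness were not given in the sources used here, and without strand a gene and its antisense partner cannot be separated. For 31908 genes in 12 libraries the authors deposited FPKM. The table gave symbols for 16801 genes, a reference list of gene names gave 687 more by ID, and positions are RefSeq's in Sscrofa11.1.

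The 11636 genes that reached FPKM 1 in 3 libraries were fitted as log2(FPKM + 1) with limma 3.58.1 in R 4.3.3 over all 12 libraries, with 4 group means, a trended empirical Bayes spread and two-sided tests, adjusted by Benjamini-Hochberg and called under 0.05. The procedure was tested on simulated data. Whole reads were recovered from the FPKM steps for all 22521 genes above 0, within 0.001 reads, and gave 99.991% to 99.993% of the library totals. They served for depth and for 1 alternative (limma's voom), chosen after the data were seen.

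The genes, lists and tests were chosen with earlier results of these data known. Named genes were all 7 genes with a row, CDKN1A, MDM4, CREBBP and EP300, the tested paralogs, up to 4 called genes of the largest change per list and comparison with a mean FPKM of 1 or more, and the 3 most alike genes of each, not all of which are reported here. ATF4 at 60h and the untested genes with few reads were added after their values were seen. Alternatives were a pseudocount of 0.1, no filter, a filter on the mean, TPM and median-of-ratios scaling, only the groups compared, each library left out, and the replicate number as a block. Symbols with 2 rows (PHLDA1, DDIT3) were left out of the counts. No sequences were used here.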

Additional observations from a re-analysis of the deposited data

Results flagged for a closer look

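The arm effect differed between 60h and 0h, by the interaction test in limma, for all 7 p53 target genes and for CDKN1A and MDM4. The difference, as the log2 effect at 60h minus that at 0h, was -3.01 for GDF15, -0.86 for MDM2, -0.56 for ZMAT3 and -0.18 for CCNG1. It was 0.78 for TP53INP1, 0.45 for SESN1 and 0.39 for GADD45A. For CDKN1A it was -0.24 (adjusted p = 0.00309) and for MDM4 0.40 (adjusted p = 0.000983). Each of these differences kept its sign and its call in every alternative run. The interaction was called for 50.9% of all tested genes.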

How the results depend on the processing

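The counts of the 7 p53 target genes called in each comparison stayed within 1.5 times of those given, with the exception of median-of-ratios scaling at 0h, which gave 1 higher and 5 lower. That scaling gave a share of higher calls among all called genes of 47.9% at 60h and 49.2% at 0h, against 62.4% and 71.0% without it. With 1 library left out, the lower count at 0h was 2 to 3, and no other count changed. The replicate number as a block gave the same counts (3 higher and 3 lower at 60h, 2 and 2 at 0h) and 8270 calls over all genes at 60h, against 8337 without it. The numbers were not found to pair libraries (correlations of deviations from the group means -0.094 to 0.082 over 18 same-numbered pairs). Limma's voom on recovered reads, added after the data were seen, gave the same counts. Small log2 changes turned sign, and the cause was not tested. With TPM scaling, TP53INP1 was -0.036 and TP53INP2 -0.0041 at 0h, CDKN1A was 0.046 with time in the CBP arm and TP53INP1 was 0.049 with time in control cells. With median-of-ratios scaling, TP53INP1 was -0.13 and TP53INP2 -0.089 at 0h, and TP53INP1 was 0.032 with time in control cells. With 1 library left out, the ranges at 0h were -0.041 to 0.0038 for MDM2, -0.034 to 0.047 for TP53INP1, -0.11 to 0.050 for CCNG2, -0.18 to 0.048 for PHLDA2 and -0.027 to 0.084 for TP53INP2, and at 60h -0.030 to 0.0043 for CCNG1 and -0.18 to 0.0027 for PHLDA2.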

Other observations

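Listed p53 genes below the filter held few reads and were not tested. TP63, which encodes the p53 relative p63, had 1, 0 and 0 reads in CBP arm libraries at 60h and 29, 36 and 27 reads in control libraries at 60h, with 0 reads in the CBP arm and 1 read in control cells over 3 libraries each at 0h. The ceramidase ACER2 had 48, 34 and 41 reads in the CBP arm and 12, 12 and 6 in control cells at 60h. DKK1, a secreted Wnt antagonist, had 94 reads in the CBP arm and 14 in control cells at 60h, and 18 in the CBP arm and 55 in control cells at 0h. The keratin KRT8 had 164 reads in the CBP arm and 38 in control cells at 0h. The checkpoint kinase CHEK1 held only 4 to 12 reads per group, and ZMAT2, a splicing factor and paralog of ZMAT3, 1 to 7.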
